A study of Mus musculus with 24 samples.

Results

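The genes described here code for 8 secreted proteins of the BPI fold (BPIF) family: *Bpifb9b*, *Bpifb9a*, *Bpifb5*, *Bpifb3*, *Bpifb4*, *Bpifb6*, *Bpifa1* and *Bpifb1*. They were chosen by symbol as members of 1 family, with the large share of a library that *Bpifb9b* can take already known, and they are 8 of the 45706 genes counted. That share is therefore given as a description.

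BPIF proteins carry the barrel-shaped, lipid-binding fold of bactericidal/permeability-increasing protein, which binds bacterial lipopolysaccharide. Short (BPIFA) members hold a single such domain and long (BPIFB) members hold a pair, and glands and surface cells of the nose and mouth secrete many of them. *Bpifa1* (SPLUNC1) and *Bpifb1* (LPLUNC1) belong to the upper airway, the *Bpifb9* genes correspond to vomeromodulin of rat nasal glands, and *Bpifb3* and *Bpifb4* are relatives of rat proteins of the olfactory mucosa.

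Bulk RNA was sequenced from the main olfactory epithelium (OE) of 12 *WT* and 12 *iRhom2-/-* mice, untreated and of mixed 129Sv/C57BL/6 background. The *iRhom2-/-* genotype is the *Rhbdf2* tm1b allele, a knockout that carries a *LacZ* reporter under the gene's own promoter. There were 3 mice per genotype at 8 weeks, 3 per genotype at 10 weeks, and 6 libraries per genotype from mice of 5 or 30 weeks, whose age could not be assigned library by library. These 3 age groups are called sets. Anything else that differed between the 8- and 10-week sets coincided with age and cannot be told apart from it. Mice 1 and 2 of each 8- and 10-week group were labelled male, as was *iRhom2-/-* mouse 3 of 8 weeks. The other mice numbered 3 were labelled female, and all 5- or 30-week mice male.

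Library totals ran from 25.3 to 48.7 M (mega) counts, with a median of 34.2 M. In *WT* mice 1, 2 and 3 they were 48.7, 42.3 and 39.2 M at 8 weeks, and 34.1, 34.4 and 35.7 M at 10 weeks. In *iRhom2-/-* mice they were 44.4, 47.3 and 44.3 M at 8 weeks, and 33.8, 34.4 and 34.6 M at 10 weeks. The 5- or 30-week totals, for libraries 7 to 12, were 29.7, 27.2, 37.5, 29.3, 30.5 and 27.1 M in *WT* and 25.3, 28.8, 27.6, 26.6, 27.7 and 38.3 M in *iRhom2-/-*.

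The genotype labels were checked with *Rhbdf2*, the gene of iRhom2. It had 938, 1034 and 831 counts in *WT* mice 1, 2 and 3 of 8 weeks and 532, 637 and 565 in the *iRhom2-/-* mice. At 10 weeks it had 655, 653 and 718 counts in *WT* and 322, 276 and 232 in *iRhom2-/-*, and at 5 or 30 weeks 556 to 835 in *WT* and 220 to 368 in *iRhom2-/-*. No *iRhom2-/-* library reached the *WT* range of its set in counts per M (CPM), and the gene was lower in *iRhom2-/-* by edgeR (log2 fold change −1.08, SE 0.09, adjusted p = 9.8e-08). *WT* mouse 3 of 8 weeks was labelled female but had 9 counts of *Xist* and 1994 of the Y-linked *Ddx3y*. It was not known whether this sex label is wrong or the column was given to the wrong mouse. Values of single 8-week *WT* mice carry this doubt. *WT* mouse 3 and *iRhom2-/-* mouse 3 of 10 weeks, also labelled female, had 6814 and 9230 counts of *Xist* and 2 and 3 of *Ddx3y*. As markers of the tissue, 10 genes of mature OSNs summed to between 8980 and 17700 CPM with *Omp* the most abundant in all 24 libraries, and 7 sustentacular genes to between 14400 and 30700 CPM. Markers of vomeronasal neurons summed to at most 8.14 CPM (median 3.88), and up to 4 of them were at 0 in a library.

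*iRhom2-/-* mouse 2 of 10 weeks stood apart before any test. The 8 genes together took 20.7% of its counts, against 1.6% in the library with the lowest share and a median of 2.88%. Its factor from trimmed mean of M-values (TMM) scaling was 0.785, and the next lowest was 0.914. The 10-week tests of *Bpifb9b*, *Bpifb9a* and *Bpifb5* are therefore also given without it, and their 8-week tests without *WT* mouse 3. None of the other 5 genes was called at 10 weeks without the first or at 8 weeks without the second.

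Per kilobase of transcript, the median level over 24 libraries was highest for *Bpifa1* (4150 CPM per kb), followed by *Bpifb9b* (3270), *Bpifb3* (2540), *Bpifb4* (1790), *Bpifb9a* (1220) and *Bpifb6* (953). *Bpifb5* (58.3) and *Bpifb1* (17.9) were far lower. The ranges over libraries of the 6 abundant genes overlapped. Differences between neighbours within the same library were not tested, so this is an order of medians only. *Bpifb5* reached 866 CPM per kb in its highest library, above the lowest of *Bpifb6* (600), and *Bpifb1* reached 50.9.

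The genes differed widely in how much they varied between libraries. The highest library exceeded the lowest in share of counts by 450-fold for *Bpifb9b*, 506-fold for *Bpifb9a* and 399-fold for *Bpifb5*. The same ratio was 29.5 for *Bpifa1* and 24.5 for *Bpifb1*, but 3.63 for *Bpifb3*, 2.95 for *Bpifb6* and 2.5 for *Bpifb4*. Around the mean of their genotype and set, log2 CPM had an SD of 2.19 for *Bpifb9b*, 2.15 for *Bpifb9a* and 2.25 for *Bpifb5*, above at least 99.5% of genes tested. The SD was 0.84 for *Bpifa1* and 0.83 for *Bpifb1*, and 0.3 to 0.33 for *Bpifb3*, *Bpifb4* and *Bpifb6*, against 0.26 for the median gene. Counting error was small beside this spread, since the 95% Wilson interval of a share reached at most 19% of its value to either side for *Bpifb5*, 16% for *Bpifb1* and 3.8% for the others. These intervals cover counting error alone.

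**Figure D1:**
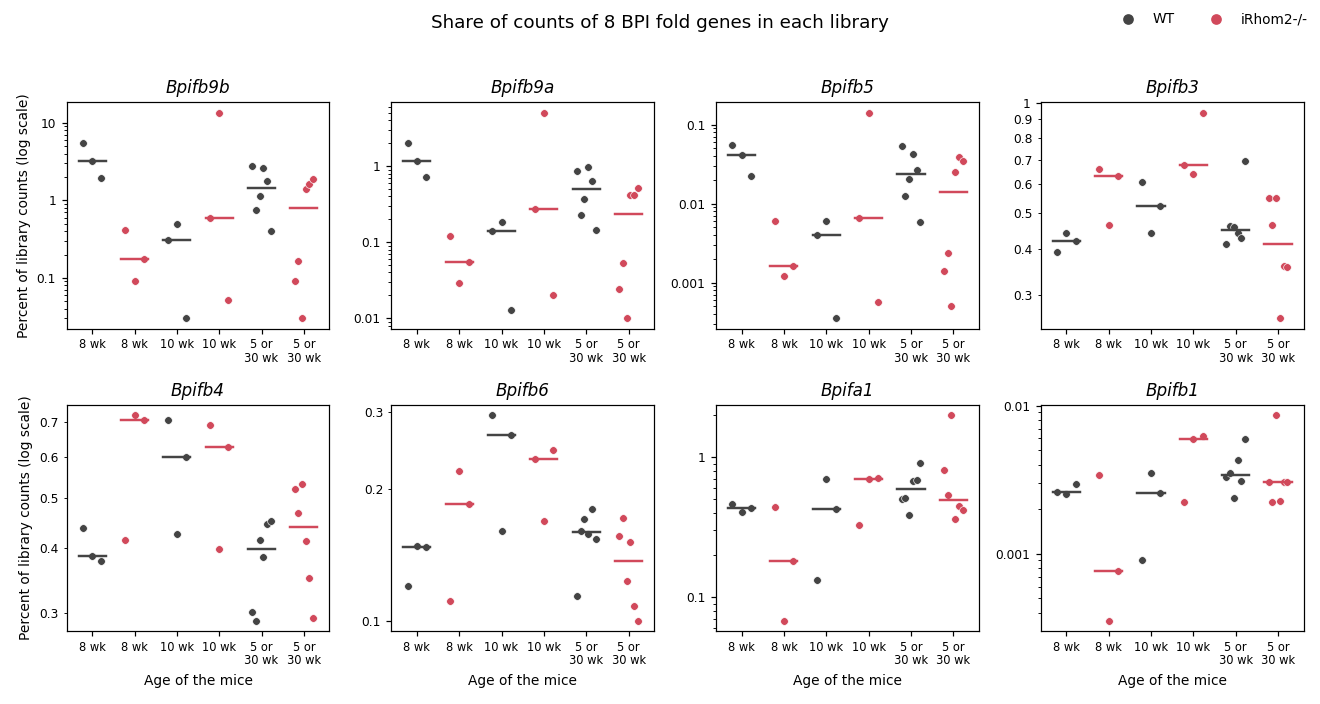
Percent of library counts (log scale) taken by each of the 8 genes in 6 groups, with *WT* in grey and *iRhom2-/-* in red. Points are libraries and bars are group medians. *Bpifb9b*, *Bpifb9a* and *Bpifb5* show the same pattern of libraries, with *iRhom2-/-* below *WT* at 8 weeks and 1 *iRhom2-/-* library far above the rest at 10 weeks.

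*Bpifb9b*, a vomeromodulin gene, took 5.53%, 3.24% and 1.92% of the counts of *WT* mice 1, 2 and 3 at 8 weeks, and 0.416%, 0.091% and 0.174% in the *iRhom2-/-* mice. At 10 weeks it took 0.308%, 0.49% and 0.0301% in *WT* mice and 0.593%, 13.6% and 0.0524% in *iRhom2-/-* mice. In each genotype the lowest 10-week library was mouse 3, labelled female and with female *Xist* counts, as for *Bpifb9a* and *Bpifb5*. The part of sex in this was not tested. At 5 or 30 weeks the lowest, median and highest shares were 0.4%, 1.45% and 2.77% in *WT*, and 0.0307%, 0.787% and 1.91% in *iRhom2-/-*. The genotypes did not overlap at 8 weeks, where all *WT* mice were high, and they overlapped in the other sets. The 6 *iRhom2-/-* libraries of 5 or 30 weeks fell apart into libraries 7 to 9 at 0.0899%, 0.163% and 0.0307% and libraries 10 to 12 at 1.41%, 1.65% and 1.91%. The sample labels number all 12 mice of the set in 1 run, in which *iRhom2-/-* mice of 5 weeks are 7 to 9 and those of 30 weeks 10 to 12. *WT* mice are 1 to 6 in that run, which the *WT* libraries 7 to 12 do not match, so no library was given an age and the part of age in this gap was not tested. In counts the gene ran from 8490 to 4663884, and it was the most abundant gene of all in 11 of 24 libraries.

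*Bpifb9a*, its close neighbour and near copy, took 1.99%, 1.18% and 0.71% in *WT* mice 1, 2 and 3 at 8 weeks, and 0.119%, 0.029% and 0.055% in *iRhom2-/-* mice. At 10 weeks its shares were 0.14%, 0.182% and 0.0127% in *WT* and 0.277%, 5.06% and 0.0201% in *iRhom2-/-*. In the 5- or 30-week set they were 0.144%, 0.5% and 0.972% (lowest, median, highest) in *WT* and 0.01%, 0.234% and 0.524% in *iRhom2-/-*. The libraries high and low in *Bpifb9b* were high and low here, again without overlap at 8 weeks. The ratio of *Bpifb9a* to *Bpifb9b* counts moved little, between 0.252 and 0.467 (median 0.344).

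*Bpifb5*, the long family member that lies before this pair on the chromosome, was far scarcer. It took 0.056%, 0.0418% and 0.0226% in *WT* mice 1, 2 and 3 at 8 weeks, and 0.006%, 0.0012% and 0.00162% in *iRhom2-/-* mice. At 10 weeks its shares were 0.00399%, 0.00599% and 0.000355% in *WT* and 0.00662%, 0.142% and 0.000573% in *iRhom2-/-*. The 5- or 30-week shares were 0.00579%, 0.0237% and 0.0544% (lowest, median, highest) in *WT* and 0.000514%, 0.0138% and 0.0391% in *iRhom2-/-*. The groups were apart at 8 weeks and overlapped elsewhere, and *iRhom2-/-* mouse 2 of 10 weeks was again the highest library.

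At 8 weeks these 3 genes were lower in *iRhom2-/-* mice by edgeR, in 3 of 3 mice each. *Bpifb9b* was 16.9-fold lower (log2 fold change −4.08, SE 0.67, adjusted p = 0.043), *Bpifb9a* 20.5-fold lower (−4.35, SE 0.64, adjusted p = 0.033) and *Bpifb5* 14.6-fold lower (−3.87, SE 0.68, adjusted p = 0.047). Thus 3 of 8 genes were called lower, against 1.74% of the 19335 genes tested. These 3 had r of at least 0.99 with each other over the 24 libraries, so their calls are not independent. The other 5 were not called, and 0 of 8 were called higher, against 3.24% of all genes, with *Bpifb3* the 1 gene at an unadjusted p under 0.05 in that direction and called higher by DESeq2, which called 11.4% of all genes in either direction. In scaled CPM 4 of 8 genes had groups without overlap, the 3 lower and *Bpifb3* higher, against 26.8% of all genes. In bulk tissue, fewer cells of a type and less RNA per cell cannot be told apart.

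The 8-week calls depended on single mice. Without *WT* mouse 2 the adjusted p was 0.12 for *Bpifb9b*, 0.103 for *Bpifb9a* and 0.13 for *Bpifb5*. Without *iRhom2-/-* mouse 2 the 3 values were 0.16, 0.12 and 0.17, and without *iRhom2-/-* mouse 3 they were 0.2, 0.17 and 0.2. Without *WT* mouse 3, whose sex label the counts contradict, the genes were still called, with log2 fold changes of −4.40, −4.67 and −4.18. Over the 6 mice left out in turn the log2 fold change lay between −4.80 and −3.53 for *Bpifb9b*, −4.99 and −3.83 for *Bpifb9a*, and −4.87 and −3.49 for *Bpifb5*. The number of genes called in either direction was 962 with all mice, and 103 without *WT* mouse 2, 132 without *WT* mouse 3, 68 without *iRhom2-/-* mouse 2 and 75 without *iRhom2-/-* mouse 3.

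At 10 weeks 0 of 8 genes were called by edgeR, against 0.197% of 18764 genes tested, with 3 at an unadjusted p under 0.05 and 0 called by DESeq2 or by the likelihood ratio test. Of all genes tested, 1461 were at an unadjusted p under 0.05 by edgeR. The log2 fold change of *Bpifb9b* was 4.33 (SE 1.86, adjusted p = 0.64), toward higher in *iRhom2-/-*, and it was 0.10 without *iRhom2-/-* mouse 2. *Bpifb9a* likewise went from 4.23 to 0.29 without that mouse, and *Bpifb5* from 4.08 to −0.06. *Bpifb3* was the 1 gene of 8 without overlap between genotypes, against 13.2% of all genes.

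At 5 or 30 weeks 0 of 8 genes were called by edgeR, against 1.07% of 18481 genes tested, with 0 at an unadjusted p under 0.05 and 0 called by DESeq2 or by the likelihood ratio test. Log2 fold changes were −0.89 for *Bpifb9b* (SE 0.84), −1.20 for *Bpifb9a* (SE 0.83) and −0.70 for *Bpifb5* (SE 0.89). None of the 8 genes had groups without overlap, against 1.57% of all genes.

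Over all 24 libraries, with the set as a term, 0 of 8 genes were called by edgeR, against 1.97% of 20763 genes tested, with 0 at an unadjusted p under 0.05 and 0 by DESeq2 or by the likelihood ratio test. The log2 fold change of *Bpifb9b* was −0.73 (SE 1.11, adjusted p = 0.87), and −1.23 (adjusted p = 0.45) without *WT* mouse 1 of 8 weeks and *iRhom2-/-* mouse 2 of 10 weeks, a pair chosen after seeing the data. The 8 genes had a median log2 fold change of −0.03, with 4 above and 4 below 0, against 0.00 over all genes. The number of all genes called was 410, and 727 without *iRhom2-/-* mouse 2 of 10 weeks.

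Whether the genotype difference itself differed between the 3 sets was tested as an interaction. By edgeR 0 of 8 genes passed, against 0.0482% of 20763 genes, with adjusted p of 0.25 for *Bpifb9b*, 0.23 for *Bpifb9a* and 0.27 for *Bpifb5*. At an unadjusted p under 0.05 there were 4 genes, against 2640 of all 20763. The test is over all 3 sets at once, not of 8 weeks against the others. DESeq2 called 3 of 8, with adjusted p of 0.0056 for *Bpifb9b*, 0.0036 for *Bpifb9a* and 0.082 for *Bpifb5*, and the likelihood ratio test called the same genes at 0.038, 0.029 and 0.068. Over all genes DESeq2 called 2.39% and the likelihood ratio test 1.39%, or 496 and 288. The 3 calls are again not independent, since these genes moved together. Without *iRhom2-/-* mouse 2 of 10 weeks, left out of these tests after seeing the data, none of the 3 genes was called. The adjusted p of *Bpifb9b* was then 0.53 by quasi-likelihood, 0.22 by DESeq2 and 0.42 by the likelihood ratio test, that of *Bpifb9a* 0.48, 0.16 and 0.34, and that of *Bpifb5* 0.57, 0.47 and 0.51.

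*Bpifb3*, a relative of rat RYA3, was among the most even of the 8. Its share was 0.391%, 0.442% and 0.421% in *WT* mice 1, 2 and 3 at 8 weeks, and 0.659%, 0.464% and 0.632% in *iRhom2-/-* mice. At 10 weeks it was 0.609%, 0.441% and 0.522% in *WT* and 0.678%, 0.639% and 0.939% in *iRhom2-/-*. Lowest, median and highest shares at 5 or 30 weeks were 0.413%, 0.451% and 0.692% in *WT* and 0.259%, 0.412% and 0.551% in *iRhom2-/-*. All *iRhom2-/-* mice were above all *WT* mice at 8 and at 10 weeks, and the groups overlapped at 5 or 30 weeks. The log2 fold change was 0.44 at 8 weeks (SE 0.16, adjusted p = 0.19), 0.56 at 10 weeks (SE 0.19, adjusted p = 0.55) and −0.22 at 5 or 30 weeks (SE 0.19, adjusted p = 0.65). DESeq2 called the 8-week difference, with an adjusted p of 0.0069.

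*Bpifb4* and *Bpifb6*, long members beside *Bpifb3* on the chromosome, ran from 0.29% to 0.723% and from 0.1% to 0.295% of counts over the 24 libraries. Neither had genotype groups without overlap in any set. At 8 weeks the log2 fold change was 0.58 for *Bpifb4* (SE 0.26, adjusted p = 0.27) and 0.29 for *Bpifb6* (SE 0.25, adjusted p = 0.56). Without *iRhom2-/-* mouse 1 of 8 weeks both were called, at 0.81 (adjusted p = 0.07) and 0.54 (adjusted p = 0.09). That fit called 1300 of 19788 genes, or 6.57%, and 7 of the 8 genes described here, 2 higher and 5 lower. Some of these 7 moved together, so their calls are not independent.

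*Bpifa1*, the short airway member, took 0.466%, 0.404% and 0.431% in *WT* mice 1, 2 and 3 at 8 weeks, and 0.444%, 0.0681% and 0.182% in *iRhom2-/-* mice. At 10 weeks its shares were 0.132%, 0.694% and 0.424% in *WT* and 0.33%, 0.693% and 0.706% in *iRhom2-/-*. At 5 or 30 weeks they were 0.386%, 0.595% and 0.914% (lowest, median, highest) in *WT* and 0.362%, 0.494% and 2.0% in *iRhom2-/-*. The genotypes overlapped in every set, with the lowest library among 8-week *iRhom2-/-* mice and the highest, library 9, among the 5- or 30-week ones. The log2 fold change at 8 weeks was −0.98 (SE 0.56, adjusted p = 0.37), and −1.82 (adjusted p = 0.087) without *iRhom2-/-* mouse 1. *Bpifb1*, the long airway member, ran from 0.000353% to 0.00865%, with its lowest and highest values in the same libraries as *Bpifa1*. Its 8-week log2 fold change was −0.92 (SE 0.69, adjusted p = 0.49), and −2.29 (adjusted p = 0.034) without *iRhom2-/-* mouse 1. In that same fit 5 of 10 ciliated, 2 of 8 mucous and 1 of 3 club cell genes were also called lower, against 613 of all 19788 genes. The part of these cells in the values of *Bpifa1* and *Bpifb1* was not tested.

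Between 8 and 10 weeks, with genotype as a term, 2 of 8 genes were called by edgeR, both lower at 8 weeks, against 51% of 20030 genes called in either direction. *Bpifb3* differed by −0.51 on the log2 scale (SE 0.12, adjusted p = 0.0051) and *Bpifb6* by −0.72 (SE 0.19, adjusted p = 0.0089). All 8 log2 fold changes were below 0, with a median of −0.67. DESeq2 called 3 of 8, adding *Bpifb4* (adjusted p = 0.096), against 52.9% of all genes. The call for *Bpifb4* (−0.36, adjusted p = 0.16) was gained without *iRhom2-/-* mouse 2 of 10 weeks (0.089), *iRhom2-/-* mouse 2 of 8 weeks (0.082) or *iRhom2-/-* mouse 3 of 8 weeks (0.089). Without *WT* mouse 1 of 10 weeks calls were gained for *Bpifa1* (0.064) and *Bpifb1* (0.10). For *Bpifb9b* the difference was −0.63 with an SE of 3.18, which gives no direction. Age cannot be told apart here from anything else that differed between the sets, such as the higher library totals at 8 weeks.

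The 8 genes did not rise and fall as 1 group. Over the 24 libraries, with the mean of each genotype and set removed, 28 pairs were correlated, and 5 were positive with an adjusted p under 0.1, 10 negative and 13 past it in neither direction. The p-values are from permutation within groups and adjusted over the 28 pairs, and the smallest p the permutations can give is 1e-05. Neither age within the 5- or 30-week groups nor sex was removed, here or in the later pairs of a gene and a list. The part of age and sex in these correlations was not tested. Pairs were counted by the p of r alone, while rho differed in its call for *Bpifb9a* with *Bpifb6* (adjusted 0.098 by r, 0.11 by rho) and *Bpifb3* with *Bpifa1* (0.1 by r, 0.088 by rho). Each r was also taken without the 2 libraries farthest from the median of the first gene named, which therefore differ by gene. They were *iRhom2-/-* mice 2 and 3 of 10 weeks for *Bpifb9b*, *Bpifb9a* and *Bpifb5*, and *iRhom2-/-* mouse 1 of 8 weeks and library 12 of 5 or 30 weeks for *Bpifb4*. For *Bpifb6* they were *iRhom2-/-* mouse 1 of 8 weeks and *WT* mouse 2 of 10 weeks, and for *Bpifa1* *iRhom2-/-* library 9 of 5 or 30 weeks and *WT* mouse 1 of 10 weeks. The groups of genes seen below were read from these values after the fact.

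*Bpifb9b*, *Bpifb9a* and *Bpifb5* moved together almost exactly. *Bpifb9b* with *Bpifb9a* had r = 1.00 and rho = 0.99, *Bpifb9b* with *Bpifb5* r = 1.00 and rho = 1.00, and *Bpifb9a* with *Bpifb5* r = 0.99 and rho = 0.99. Each r and rho of these pairs had the smallest permutation p, 1e-05 (adjusted 9.3e-05). Without their 2 farthest libraries r was 1.00, 1.00 and 0.99, and within the 3 sets it lay between 0.95 and 1.00.

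*Bpifa1* and *Bpifb1*, the airway members, formed another pair, with r = 0.93 (permutation p = 4e-05, adjusted 0.00028) and rho = 0.88 (permutation p = 0.0001, adjusted 0.0007). Without the 2 farthest libraries r was 0.9, and within the 8-week, 10-week and 5- or 30-week sets it was 0.97, 0.98 and 0.89. *Bpifb4* and *Bpifb6*, which lie on either side of *Bpifb3*, had r = 0.79 (permutation p = 0.0014, adjusted 0.0076) and rho = 0.71 (permutation p = 0.0047, adjusted 0.022). Here r was 0.63 without the 2 farthest libraries, and 0.86, 0.91 and 0.67 within the sets. *Bpifb3*, between them, was not called with either.

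Between these groups the relations were weaker or of the other sign. Of the 10 negative pairs called, 9 joined *Bpifb9b*, *Bpifb9a* or *Bpifb5* with *Bpifb3*, *Bpifb4* or *Bpifb6*. The other was *Bpifb6* with *Bpifb1*, with r = −0.65 (permutation p = 0.02, adjusted 0.062) and rho = −0.68 (permutation p = 0.0026, adjusted 0.014), and its r was −0.35 without the 2 farthest libraries and −0.98, −0.58 and −0.35 within the sets. *Bpifb9b* with *Bpifb4* had r = −0.53 (permutation p = 0.01, adjusted 0.042) and rho = −0.55 (permutation p = 0.014, adjusted 0.052), with r = −0.53 without the 2 farthest libraries and −0.45, −0.54 and −0.66 within the sets. *Bpifb9b* with *Bpifb3* had r = −0.56 (permutation p = 0.027, adjusted 0.062) and rho = −0.54 (permutation p = 0.032, adjusted 0.074), with r = −0.63 without the 2 farthest. Within the sets that r was 0.63, −0.35 and −0.85, so the relation did not hold at 8 weeks. *Bpifb9b* with *Bpifa1* was not called, with r = −0.21 (permutation p = 0.41, adjusted 0.5) and rho = −0.22 (permutation p = 0.42, adjusted 0.49), and 0.83, 0.09 and −0.8 within the sets. With library totals counted without the 8 genes, r of *Bpifb9b* was −0.53 with *Bpifb4* and −0.54 with *Bpifb3*. The number of pairs called was 15, and it fell to 9 without *iRhom2-/-* mouse 3 of 10 weeks and to 9 without *iRhom2-/-* library 7 of 5 or 30 weeks.

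**Figure D2:**
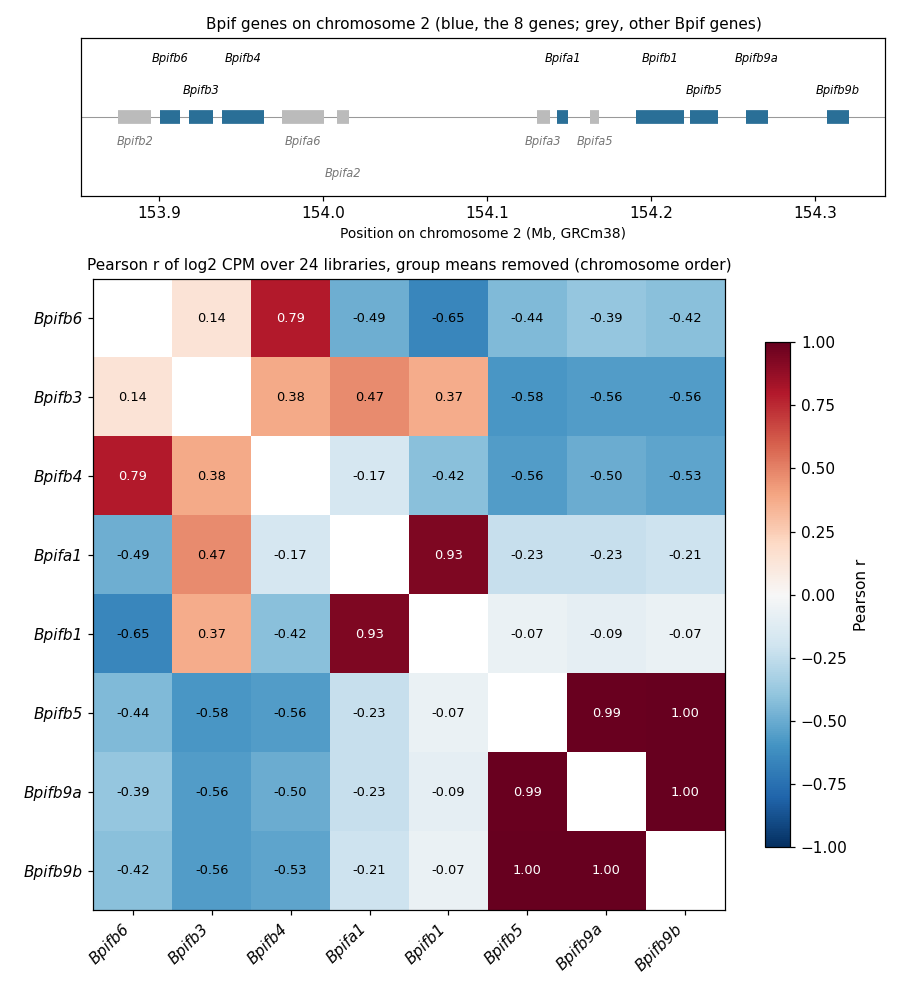
Map of 13 Bpif genes on chromosome 2 (position in megabases, the 8 genes in blue), above a heat map of Pearson r of the 8 genes in chromosome order, from log2 CPM of 24 libraries with the mean of each genotype and set removed. *Bpifb5*, *Bpifb9a* and *Bpifb9b*, side by side, have r of at least 0.99 with each other.

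Lists of marker genes were set beside the genes to describe gland tissue. Summed levels of 12 serous gland genes ran from 1010 to 3290 CPM (median 1280), highest in *WT* mouse 1 of 8 weeks and then 2330 in *WT* mouse 2 of 10 weeks. At 8 weeks they were 3290, 1220 and 1250 CPM in *WT* mice 1, 2 and 3 and 1160, 1630 and 1180 in *iRhom2-/-* mice, which overlap, while *Bpifb9b* did not. The most abundant serous gene was *Aqp5*, *Ltf* or *Slc12a2* by library, and no gene was at 0 in any. By edgeR 0 of 12 serous genes were called between genotypes over all sets (2 at an unadjusted p under 0.05, 1 called by DESeq2 and 1 by the likelihood ratio test), with a median log2 fold change of −0.07 and 10 of 12 below 0. At 8 weeks 0 of 12 were called by edgeR (3 at an unadjusted p under 0.05, 1 called by DESeq2 and 2 by the likelihood ratio test), with a median of −0.12 and 7 of 12 below 0, and 1 was called higher without *WT* mouse 1. *Dmbt1*, a mucosal scavenger receptor, had a log2 fold change of −4.32 at that age (adjusted p = 0.12). The part of serous gland tissue in the 8-week *Bpifb9b* difference was not tested. *Bpifb9b* and the mean log2 CPM of the serous genes had r = 0.39 (permutation p = 0.13, adjusted 0.23 over 39 pairs of a gene and a list) and rho = 0.36 (permutation p = 0.12, adjusted 0.22). That r was 0.28 without the 2 farthest libraries and 0.51, 0.59 and 0.13 within the sets. In all such pairs the list enters as the mean log2 CPM of its tested genes, which weighs each gene alike, and not as the summed CPM. *Bpifb9b*, *Bpifb4* and *Bpifa1*, 1 for each group of genes, were chosen for these pairs after the correlations above were seen.

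Odorant-binding and lipocalin genes, which code for other secreted proteins of nasal glands, summed to 37000, 7200 and 7560 CPM in *WT* mice 1, 2 and 3 at 8 weeks and 5050, 16600 and 4460 in *iRhom2-/-* mice. Over all libraries their sum ran from 3220 to 37000 CPM (median 10300), with *Scgb1c1* most often the most abundant and none at 0. Over all sets 0 of 10 tested were called by edgeR (4 at an unadjusted p under 0.05, 0 called by DESeq2), but 10 of 10 log2 fold changes were below 0, with a median of −1.25. The median was −1.57 at 8 weeks, −0.22 at 10 weeks and −1.61 at 5 or 30 weeks. At 8 weeks 0 of 10 were called by edgeR (0 at an unadjusted p under 0.05, 0 called by DESeq2 or by the likelihood ratio test), and without *WT* mouse 1 of 8 weeks 1 was called higher by edgeR. *Bpifb9b* and the mean log2 CPM of these genes had r = 0.58 (permutation p = 0.011, adjusted 0.048) and rho = 0.54 (permutation p = 0.024, adjusted 0.094), with r = 0.65 without the 2 farthest libraries and 0.31, 0.4 and 0.83 within the sets. With log2 of their summed CPM, a measure added after seeing the data, r was 0.47 (permutation p = 0.034, adjusted 0.092) and rho 0.44 (permutation p = 0.059, adjusted 0.14), with 0.54 without the 2 farthest and 0.05, 0.5 and 0.67 within the sets. Their part in the *Bpifb9b* difference was not tested.

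*Bpifb9b* was low where the mean of mature OSN markers was high, with r = −0.6 (permutation p = 0.0047, adjusted 0.023) and rho = −0.61 (permutation p = 0.007, adjusted 0.034). That r was −0.67 without the 2 farthest libraries and −0.75, −0.68 and −0.71 within the sets. At 8 weeks the 10 mature OSN genes summed to 8980, 12200 and 12500 CPM in *WT* mice 1, 2 and 3 and 15200, 16300 and 17700 in *iRhom2-/-* mice, without overlap. *Omp* was the most abundant and none was at 0. At that age 3 of 10 mature and 4 of 8 immature OSN genes were called higher by edgeR, against 3.24% of all genes, with median log2 fold changes of 0.49 and 0.31. DESeq2 called 9 and 5 of them, and the likelihood ratio test 4 and 3. Of all 19335 genes these tests called 2195 and 1055 in either direction. By edgeR all calls of OSN genes were lost without *WT* mouse 2, *WT* mouse 3, *iRhom2-/-* mouse 2 or *iRhom2-/-* mouse 3, and 6 mature and 5 immature genes were called without *iRhom2-/-* mouse 1. Their part in the 8-week *Bpifb9b* difference was not tested. *Bpifb4* had the other sign with the mature OSN mean, with r = 0.69 (permutation p = 0.00074, adjusted 0.0041), rho = 0.59 (permutation p = 0.006, adjusted 0.033), 0.62 without the 2 farthest libraries and 0.24, 0.94 and 0.85 within the sets.

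*Bpifa1* went with markers of respiratory epithelium. Its r was 0.83 with the mean of mucous and goblet genes (permutation p = 1e-05, adjusted 0.00039), with rho = 0.88 (permutation p = 1e-05, adjusted 0.00039), r = 0.79 without the 2 farthest libraries, and 0.63, 0.94 and 0.88 within the sets. With the ciliated mean r was 0.85 (permutation p = 0.00011, adjusted 0.0014) and rho = 0.8 (permutation p = 0.00039, adjusted 0.0038), with 0.78 without the 2 farthest, and 0.87, 0.98 and 0.71 within the sets. With the mean of 3 club cell genes r was 0.82 (permutation p = 0.00027, adjusted 0.0021) and rho = 0.8 (permutation p = 0.00075, adjusted 0.0058), with 0.78 without the 2 farthest and 0.88, 0.9 and 0.71 within the sets. With the immature OSN mean *Bpifa1* had r = −0.63 (permutation p = 4e-05, adjusted 0.00078) and rho = −0.69 (permutation p = 0.00022, adjusted 0.0038), with −0.56 without the 2 farthest and −0.68, −0.68 and −0.82 within the sets.

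In summed CPM, where the most abundant gene of a list weighs most, these relations of *Bpifa1* were in part weaker. With log2 of the mucous sum r was 0.44 (permutation p = 0.024, adjusted 0.078) and rho 0.47 (permutation p = 0.024, adjusted 0.073), with 0.37 without the 2 farthest libraries and −0.15, −0.45 and 0.89 within the sets. With that of the club sum r was 0.55 (permutation p = 0.0028, adjusted 0.014) and rho 0.6 (permutation p = 0.002, adjusted 0.013), with 0.41 without the 2 farthest and −0.71, 0.75 and 0.88 within the sets. Neither relation thus held within every set. With that of the ciliated sum r was 0.73 (permutation p = 0.00011, adjusted 0.0017) and rho 0.8 (permutation p = 0.00012, adjusted 0.0037), with 0.65 without the 2 farthest and 0.76, 0.91 and 0.68 within the sets.

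Of the 39 pairs of a gene and a list, 7 were called with only 1 of the 2 measures, and these joined *Bpifb9b* or *Bpifb4* to a list. The mucous sum is led by *Muc5b*. *Bpifb9b* had r = −0.62 with it (permutation p = 0.004, adjusted 0.016) and rho = −0.62 (permutation p = 0.0088, adjusted 0.038), with −0.65 without the 2 farthest and −0.3, −0.61 and −0.8 within the sets, against r = −0.22 with the mean (permutation p = 0.4, adjusted 0.51). *Bpifb4* had r = 0.65 with the mucous sum (permutation p = 0.00087, adjusted 0.0057) and rho = 0.66 (permutation p = 0.0009, adjusted 0.007), with 0.67 without the 2 farthest and 0.41, 0.66 and 0.8 within the sets, against r = −0.06 with the mean (permutation p = 0.81, adjusted 0.88). With the club sum *Bpifb9b* had r = −0.51 (permutation p = 0.038, adjusted 0.092) and rho = −0.51 (permutation p = 0.041, adjusted 0.11), with −0.71 without the 2 farthest and −0.98, 0.21 and −0.8 within the sets, against r = −0.02 with the mean (permutation p = 0.96, adjusted 0.99). With that sum *Bpifb4* had r = 0.46 (permutation p = 0.037, adjusted 0.092) and rho = 0.4 (permutation p = 0.067, adjusted 0.15), with 0.34 without the 2 farthest and 0.31, −0.64 and 0.75 within the sets, against r = −0.49 with the mean (permutation p = 0.064, adjusted 0.15).

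With the sustentacular sum *Bpifb9b* had r = −0.44 (permutation p = 0.035, adjusted 0.092) and rho = −0.55 (permutation p = 0.015, adjusted 0.052), with −0.63 without the 2 farthest and −0.91, 0.2 and −0.65 within the sets, against r = −0.33 with the mean (permutation p = 0.18, adjusted 0.3). *Bpifb4* had r = 0.68 with this sum (permutation p = 0.003, adjusted 0.014) and rho = 0.6 (permutation p = 0.0097, adjusted 0.038), with 0.42 without the 2 farthest and 0.58, 0.37 and 0.82 within the sets, against r = 0.47 with the mean (permutation p = 0.04, adjusted 0.12). Only the odorant-binding mean was called where the sum was not. *Bpifb4* had r = −0.5 with that mean (permutation p = 0.024, adjusted 0.085) and rho = −0.46 (permutation p = 0.045, adjusted 0.15), with −0.56 without the 2 farthest and 0.42, −0.96 and −0.73 within the sets, against r = −0.32 with the sum (permutation p = 0.19, adjusted 0.32).

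The ciliated sum ran from 276 to 644 CPM (median 416) and was highest in *iRhom2-/-* library 9, the library highest in *Bpifa1*. *Foxj1* was its most abundant gene in 23 of 24 libraries and none of its 10 genes was at 0. *Muc5b* led the mucous list and *Cyp2f2* the club list in all 24 libraries, with 1 to 2 mucous and up to 2 club genes at 0. Between genotypes the median log2 fold change of the ciliated genes was −0.28 at 8 weeks, 0.35 at 10 weeks with 10 of 10 above 0, and −0.04 at 5 or 30 weeks. For club genes it was −0.48, 0.90 and −0.13 in these sets, and for mucous genes −0.30, 0.00 and −0.06. With all mice none of these genes was called by edgeR in any set, with 1 at an unadjusted p under 0.05 at 8 weeks, 3 at 10 weeks and 2 at 5 or 30 weeks. DESeq2 called 1 ciliated gene at 8 weeks, 1 club gene at 10 weeks and 2 mucous genes at 5 or 30 weeks, and the likelihood ratio test 1 mucous gene at 10 weeks and 1 at 5 or 30 weeks. Without *iRhom2-/-* mouse 1 of 8 weeks, edgeR called 5 ciliated, 2 mucous and 1 club gene lower at 8 weeks, against 613 of all 19788 genes. It called none of these lists' genes without any other 1 of the 8-week mice.

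The plasma cell, neutrophil and erythrocyte lists had no single relation to *Bpifb9b*. Plasma cell genes summed to 7770, 426 and 457 CPM in *WT* mice 1, 2 and 3 of 8 weeks and 137, 69.2 and 99.0 in *iRhom2-/-* mice, with *Igha* most often the most abundant. At 8 weeks 1 of 6 was called lower by edgeR, against 1.74% of all genes, with 6 of 6 at an unadjusted p under 0.05, 1 called by DESeq2, 4 by the likelihood ratio test and a median log2 fold change of −4.20. By edgeR 3 of 6 were called lower without *WT* mouse 1, and the call was lost without any other 1 of the 8-week mice. In *iRhom2-/-* libraries 10 to 12 of 5 or 30 weeks, which were high in *Bpifb9b*, they summed to 12.0, 17.8 and 19.4 CPM, the lowest of all libraries. *Bpifb9b* and the plasma cell mean had r = −0.36 (permutation p = 0.14, adjusted 0.25) and rho = −0.34 (permutation p = 0.16, adjusted 0.26), with −0.61 without the 2 farthest libraries and 0.63, 0.96 and −0.88 within the sets. With the neutrophil mean *Bpifb9b* had r = −0.31 (permutation p = 0.25, adjusted 0.36) and rho = −0.27 (permutation p = 0.29, adjusted 0.39), with −0.6 without the 2 farthest and −0.2, 0.77 and −0.75 within the sets. *Bpifa1* and the plasma cell mean had r = 0.52 (permutation p = 0.00025, adjusted 0.0021) and rho = 0.57 (permutation p = 0.0015, adjusted 0.01), with 0.48 without the 2 farthest and 0.24, 0.06 and 0.82 within the sets. For *Bpifb4* and that mean r was 0.5 (permutation p = 0.014, adjusted 0.056) and rho 0.51 (permutation p = 0.016, adjusted 0.067). That r was 0.56 without the 2 farthest and 0.25, −0.47 and 0.77 within the sets.

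Erythrocyte genes, led by *Hbb-bs* in 23 of 24 libraries, summed to 4830 CPM in *iRhom2-/-* mouse 2 of 10 weeks, the highest library in *Bpifb9b*, and 731 and 482 in *iRhom2-/-* mice 1 and 3, against 1130, 1420 and 596 in *WT* mice. *Bpifb9b* and their mean had r = 0.59 (permutation p = 0.072, adjusted 0.17) and rho = 0.43 (permutation p = 0.1, adjusted 0.22), which fell to r = 0.2 without the 2 farthest libraries and was 0.31, 0.96 and −0.14 within the sets. Neutrophil genes, led by *S100a9*, ran from 89.5 to 986 CPM, highest in *iRhom2-/-* library 9. No gene of these 3 lists was at 0 in any library. The part of plasma cells, neutrophils and erythrocytes in the *Bpifb9b*, *Bpifb4* and *Bpifa1* values was not tested.

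Other genes of the family and of lipid transfer were scarce or moderate in the OE. *Bpifa2* had 17 to 79 counts, *Bpifc* 2 to 30, *Bpifa6* 2 to 16, *Bpifb2* 0 to 10, *Bpifa5* 0 to 4, and *Bpifa3* and *Bpi* 0 to 2. *Lbp*, the lipopolysaccharide-binding protein, had 614 to 2421 and *Pltp*, the phospholipid transfer protein, 1213 to 2854. By edgeR 0 of the 5 tested were called between genotypes over all sets (1 at an unadjusted p under 0.05, 0 called by DESeq2 or by the likelihood ratio test). At 10 weeks 0 of 4 were called by edgeR (2 at an unadjusted p under 0.05, 2 called by DESeq2 and 0 by the likelihood ratio test). Of all 18764 genes, 1461 were at an unadjusted p under 0.05 by edgeR, and DESeq2 called 289. *Bpifa1* and the mean log2 CPM of the 5 tested had r = 0.69 (permutation p = 0.00042, adjusted 0.0027) and rho = 0.7 (permutation p = 0.00037, adjusted 0.0038). That r was 0.5 without the 2 farthest libraries and 0.22, 0.92 and 0.86 within the sets. With log2 of the summed CPM r was 0.81 (permutation p = 0.00017, adjusted 0.0017).

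Of the 20755 other genes, those most like *Bpifb9b* over the 24 libraries were *Odam* (r = 0.988), *2310003L06Rik* (0.986), *Cabs1* (0.971), *Smr3a* (0.946) and *Sva* (0.933), given as a description. *Odam* codes for a secreted odontogenic protein, and *Cabs1*, *Smr3a* and *Sva* are known from salivary, lacrimal or seminal secretions. *Odam* ran from 0.521 to 199 CPM (median 13.8). At 8 weeks *Odam* was also lower in *iRhom2-/-* mice by edgeR (log2 fold change −4.32, adjusted p = 0.0043), as were *2310003L06Rik* (−5.22, adjusted p = 0.022), *Cabs1* (−4.34, adjusted p = 0.024) and *Smr3a* (−2.98, adjusted p = 0.046). *Sva* was not called (−2.54, adjusted p = 0.11). With each 8-week mouse left out in turn *Odam* was called every time, at an adjusted p of at most 0.047. The call of *2310003L06Rik* was lost without *iRhom2-/-* mouse 3 (0.14). That of *Cabs1* was lost without *iRhom2-/-* mouse 2 (0.12) or *iRhom2-/-* mouse 3 (0.1, just past the threshold). That of *Smr3a* was lost without *WT* mouse 2 (0.14), *WT* mouse 3 (0.12), *iRhom2-/-* mouse 2 (0.2) or *iRhom2-/-* mouse 3 (0.17), and *Sva* was called without *iRhom2-/-* mouse 1 (0.093). The genes most like *Bpifa1* were *Tacr1* (r = 0.95), *Lgr6* (0.916), *Tff2* (0.912), *Spag16* (0.909) and *Nlrp3* (0.898), and those most like *Bpifb4* were *Tmem102* (0.929), *Psap* (0.884), *Aldoa* (0.88), *Capn1* (0.878) and *Tmbim6* (0.867). *Bpifa1* and *Bpifb4* were added to this search after the member correlations were seen.

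All 8 genes lie on the + strand of chromosome 2 within 420.3 kb (GRCm38, 153900388 to 154320646). That chromosome holds 13 Bpif genes, of which *Bpifb2* ends before this span. In order the 8 genes are *Bpifb6*, *Bpifb3*, *Bpifb4*, *Bpifa1*, *Bpifb1*, *Bpifb5*, *Bpifb9a* and *Bpifb9b*. *Bpifb5* (154223742 to 154240902), *Bpifb9a* (154257854 to 154271245) and *Bpifb9b* (154307227 to 154320646) are adjacent, with gaps of 17.0 kb and 36.0 kb, and are each annotated with 15 exons. *Bpifb1* ends 3.4 kb before *Bpifb5* begins, and these neighbours were among the 13 pairs not called. The *Bpifb9a* and *Bpifb9b* transcripts are 99.3% identical over 2065 bases and share 833 of 1918 windows of 150 bases whole, so the split of reads between them is uncertain. Summed as 1 gene, they were still called lower at 8 weeks (log2 fold change −4.15, adjusted p = 0.041). The *Bpifb5* transcript matches that of *Bpifb9b* in 64.0% of aligned bases, gaps left out, and shares 0 windows of 150 bases with it.

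Because the 3 genes moved together, the stretches before their starts are shown, taken from RefSeq (GRCm38.p6, + strand, 5′ to 3′). RefSeq promoter entries, 300 bases each, were matched for all 8 genes (10 entries). Capitals mark TATAAA, and CATATG, which reads the same on both strands. Both motifs were searched on both strands and chosen with the sequences in view. TATAAA is in 13.6% and CATATG in 3.91% of 32851 promoters of the same length, and both are in 0.919%. Among the 8 genes TATAAA is in *Bpifb9b*, *Bpifb9a* and *Bpifa1*, and CATATG in *Bpifb9b*, *Bpifb9a* and *Bpifb1*. The stretches are chr2:154306994-154307226 for *Bpifb9b*, chr2:154257629-154257853 for *Bpifb9a* and chr2:154223492-154223741 for *Bpifb5*, and a match is a description of letters only.
Bpifb9b: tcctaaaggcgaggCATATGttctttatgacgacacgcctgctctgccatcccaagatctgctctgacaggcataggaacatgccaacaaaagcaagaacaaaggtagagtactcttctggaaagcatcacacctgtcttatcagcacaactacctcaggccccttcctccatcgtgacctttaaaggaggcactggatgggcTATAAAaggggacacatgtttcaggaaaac
Bpifb9a: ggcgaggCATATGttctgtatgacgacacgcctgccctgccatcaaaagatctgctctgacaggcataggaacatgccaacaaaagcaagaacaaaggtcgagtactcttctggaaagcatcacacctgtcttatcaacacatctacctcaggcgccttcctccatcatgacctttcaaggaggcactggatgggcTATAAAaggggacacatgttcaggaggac
Bpifb5: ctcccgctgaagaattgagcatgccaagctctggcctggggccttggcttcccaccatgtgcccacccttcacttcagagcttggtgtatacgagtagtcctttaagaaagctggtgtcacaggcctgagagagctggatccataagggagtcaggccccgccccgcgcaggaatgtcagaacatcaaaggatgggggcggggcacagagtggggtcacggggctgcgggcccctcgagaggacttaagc
The *Bpifb9a* and *Bpifb9b* stretches match in 213 of 225 aligned bases (94.7%), and those of *Bpifb5* and *Bpifb9b* in 131 of 208 (63.0%), with neither motif in *Bpifb5*. Gaps, left out of these shares, took 8 bases in the first alignment and 67 in the second. No share for unrelated stretches was taken, so the 63.0% is not a measure of likeness.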

How the data were processed

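Poly(A) RNA of whole OE was sequenced in paired reads, and the authors aligned it to GRCm38 and deposited expected counts of genes from RSEM, which were already whole. The authors' comparison columns (log fold change, logCPM, LR, p and FDR) were not used. Per the labels, columns 1 to 3 of each genotype are 10-week mice and 4 to 6 are 8-week mice, and columns 7 to 12 were assigned to the 5- or 30-week group by elimination, without an age or mouse number. The 8 genes and the marker lists were chosen with earlier results of these data known.

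Genes were filtered with filterByExpr, scaled by TMM and tested with the quasi-likelihood test of edgeR 4.0.16 (R 4.3.3, limma 3.58.1), adjusted by Benjamini-Hochberg over all genes tested, and called at an adjusted p under 0.1. Correlations used log2 CPM (prior count 2) and 100000 two-sided permutations within groups, in Python 3.11.15 with numpy 2.4.6, scipy 1.17.1 and pandas 2.3.3, and plots matplotlib 3.10.9. The fits over all sets, at 8 weeks, at 5 or 30 weeks and between 8 and 10 weeks were tested on simulated data. Named genes were the 8, *Rhbdf2*, other family genes, the 2 most abundant genes of each list and those with its smallest p in each direction, and the 10 genes most like *Bpifb9b*, of which 5 are given. Markers leading a list, and genes like *Bpifa1* or *Bpifb4*, were added after values were seen. Gene positions were from GENCODE M21. Alternatives were DESeq2 1.42.0, the likelihood ratio test, RLE scaling, totals without the 8 genes, other filters, terms for set, sex and replicate block, subsets of mice, and each mouse left out.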

Additional observations from a re-analysis of the deposited data

Results flagged for a closer look

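In the 6 libraries of a genotype at 5 or 30 weeks, 3 shares of counts lay far from the nearest of the others. *Bpifb3* took 0.692% in *WT* library 12, with 0.462% the next highest. *Bpifa1* took 2.0% in *iRhom2-/-* library 9, with 0.814% the next highest, and *Bpifb1* took 0.00865% in that same library, with 0.00307% the next highest. Of 16 groups of 6 libraries looked at, chance marks about 1 in 20, and *Bpifa1* and *Bpifb1* moved together, so their marks are not independent. The age of these libraries was not known, and the cause was not tested.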

How the results depend on the processing

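Over 364 values of the 8 genes under settings that kept every library or left out a named subset, 342 kept their direction and side of the threshold, 14 changed sign and 8 passed the threshold newly. Over all sets 410 genes were called, and the count was 823 with DESeq2, 106 in the 12 mice of 8 and 10 weeks, 132 with no set term, 242 in mice labelled male, 234 at a threshold of 0.05, and 299 to 727 with 1 library left out. With a replicate block in those 12 mice it was 41, set against their 106, but mouse numbers did not pair the genotypes, since r of equal numbers was 0.117, 0.033 and 0.004 at 8 weeks and 0.011, 0.216 and 0.111 at 10 weeks. At 8 weeks DESeq2 gave 2195 for 962, and 1 mouse left out gave 68 to 1300. At 10 weeks DESeq2 gave 289 for 37, the likelihood ratio test 178, no filter 58, and 1 mouse left out 13 to 105. At 5 or 30 weeks DESeq2 gave 916 for 198, no filter 119, and 1 library left out 52 to 241. For the interaction DESeq2 gave 496 for 10, the likelihood ratio test 288, these tests without *iRhom2-/-* mouse 2 of 10 weeks 244 and 124, and 1 library left out 0 to 204, where edgeR gave 0 without *iRhom2-/-* mouse 3 of 8 weeks and 2012 at an unadjusted p under 0.05. Between 8 and 10 weeks, 1 mouse left out gave 9292 to 10441 for 10215. The likelihood ratio test called 540 genes over all sets, 1055 at 8 weeks and 297 at 5 or 30 weeks. At an unadjusted p under 0.05 edgeR had 2573 genes over all sets, 3827 at 8 weeks, 1461 at 10 weeks and 2616 at 5 or 30 weeks. Pairs of genes called numbered 9 to 17 with 1 library left out.

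The log2 fold change over all sets changed sign with no set term for *Bpifb9b* (0.16), *Bpifb9a* (0.16) and *Bpifb5* (0.00). In the 12 mice of 8 and 10 weeks it did so for *Bpifb9b* (0.13), *Bpifb5* (0.10), *Bpifb6* (0.09) and *Bpifa1* (−0.22). With the replicate block, fitted in those 12 mice alone, *Bpifb1* also did so (−0.06), while *Bpifb6* (0.07) and *Bpifa1* (−0.26) kept the sign those mice gave without it, and the sign changed in mice labelled male for *Bpifb1* (−0.05). Chosen after seeing the data, leaving out the *Xist* mice gave −0.09 for *Bpifb1* and −0.02 for *Bpifa1*, and leaving out *WT* mouse 1 of 8 weeks with *iRhom2-/-* mouse 2 of 10 weeks gave −0.04 for *Bpifb1*. None of these was called. With 1 library left out, signs changed within −0.19 to 0.18 for *Bpifb1* and −0.25 to 0.19 for *Bpifa1* over all sets. At 10 weeks they changed within −0.06 to 4.75 for *Bpifb5*, −0.17 to 0.17 for *Bpifb4* and −0.34 to 0.05 for *Bpifb6*. At 5 or 30 weeks they changed within −0.48 to 0.12 for *Bpifb1* and −0.27 to 0.44 for *Bpifa1*. Between 8 and 10 weeks they changed within −2.59 to 1.62 for *Bpifb9b*, −2.91 to 1.24 for *Bpifb9a* and −2.31 to 1.66 for *Bpifb5*. Apart from the smaller subsets, the cause was not tested. With 25.3 M counts in the smallest library, depth limits *Bpifb1* and *Bpifb5* most, at 127 counts or more a library.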
